A study of Plutella xylostella with 12 samples.

Results

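The miRNAs described here are pxy-mir-316-5p and both arms of the mir-92b precursor, pxy-mir-92b-5p and pxy-mir-92b-3p, in larvae of the diamondback moth *Plutella xylostella*. They are 3 of the 105 miRNA names listed in the series, and were taken by name. They had been selected on the counts of these same libraries, as miRNAs whose levels looked higher after 24 h than after 6 h. Their values by time are therefore given as a description with no test, whereas the comparison between doses was not used to choose them and was tested. That description held for pxy-mir-316-5p and, in terms of being listed at all, for pxy-mir-92b-5p. It did not hold for pxy-mir-92b-3p, whose levels at 24 h lay within or below the range at 6 h.

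The small RNA libraries came from whole larvae, at the 3rd instar, of the insecticide-susceptible Waite strain that survived exposure to chlorantraniliprole. This diamide insecticide opens the ryanodine receptor, which releases calcium in muscle cells. The 4 groups of 3 libraries were 0.01 ppm (low dose) collected after 6 h, 0.1 ppm (high dose) after 6 h, low dose after 24 h and high dose after 24 h. Every group was exposed, and the unexposed larvae that the labels mention were not analysed here. The larvae were survivors, so each group leaves out larvae that died, and a whole larva mixes all tissues, in which fewer cells of a type and less RNA per cell cannot be told apart. Nothing beyond the name biological replicate says how the 3 libraries of a group were separated. The p-values thus set a difference between groups against the spread between these libraries only.

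A miRNA is cut from a hairpin precursor, whose 5p and 3p arms can each be released. One arm is usually loaded into an Argonaute protein and pairs with messenger RNAs through its seed near the 5′ end, while the other arm is mostly degraded. In the miR-92 family, which is shared by insects and vertebrates, the 3p arm carries the family seed and is usually the abundant arm. In *Drosophila*, miR-92b represses the muscle transcription factor Mef2 during muscle development, and miR-92 miRNAs act in neural stem cells. The mir-316 gene is conserved among insects, and its function is less well described. The sequences of these miRNAs are not printed here, since the tables used hold none.

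Library totals and the rule that sets what is listed both bear on these miRNAs. Totals of listed counts ran from 10714 to 30676 in the 6 h libraries (22150 ± 6900, SD, n = 6) and from 28682 to 41214 in the 24 h libraries (37288 ± 4936). The 6 h libraries listed 59 to 82 names and the 24 h libraries 79 to 90. Each name can fill several rows of a library, the sources do not say how the rows differ, and no row below 5 counts is present. An unlisted name may thus have been present below that level, and no upper limit is given for it. Of the tissue markers looked for, the muscle miRNA mir-1 and mir-281 of midgut and Malpighian tubule were listed in all 12 libraries. No arm of mir-133 (muscle), mir-124 or mir-7 (nervous tissue), mir-8 (epithelium), mir-989 or mir-309 (germ line and embryo), or of the plant miRNAs mir-156, mir-166 and mir-168 was listed.

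The 3 miRNAs stood at very different levels. By the mean over the 12 libraries of counts scaled to a common library size with TMM factors, which are trimmed means of the ratios between libraries (CPM), pxy-mir-92b-3p ranked 26 of 105 with 4264 ± 818 CPM (SD, n = 12). The mean of pxy-mir-316-5p was 832 ± 332 CPM, at rank 51, between pxy-mir-1-3p (848 CPM) and pxy-mir-190-5p (828 CPM), both of which were also listed in every library. The rank of pxy-mir-92b-5p was 76, counted with unlisted libraries at 0. The names directly above and below it, pxy-mir-87-3p and pxy-mir-2796-3p, were listed in 1 and 2 of the 6 libraries at 6 h and in 5 and 6 of the 6 at 24 h. A thinner listing at 6 h was therefore also seen in its nearest neighbours by level.

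**Figure D1:**
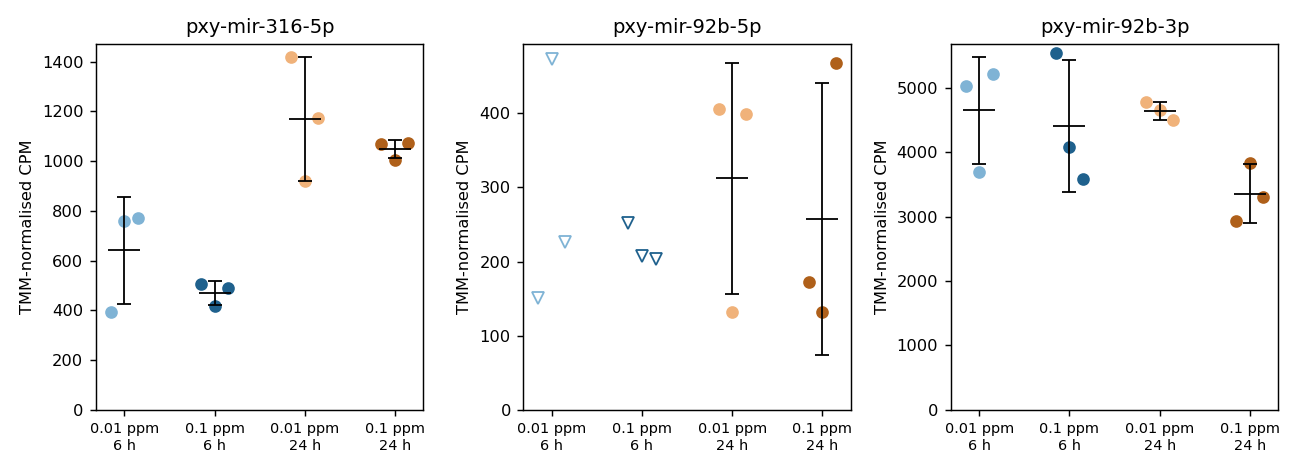
Levels of the 3 miRNAs in each library, as TMM-normalised CPM on a linear axis that starts at 0, by dose and time. Filled circles are libraries that list the miRNA, the black line and bars are the group mean and SD of 3 libraries, and open triangles mark the CPM that a single row of 5 counts would have in a library that does not list it. The 24 h libraries of pxy-mir-316-5p sit between 921 and 1419 CPM, all above the 6 h libraries, while those of pxy-mir-92b-3p do not.

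The counts of pxy-mir-316-5p were 13, 8 and 17 in the low-dose libraries at 6 h and 10, 10 and 12 in the high-dose libraries at 6 h. At 24 h they were 49, 35 and 44 in low-dose libraries and 31, 38 and 48 in high-dose libraries. All 6 libraries at 24 h held more than any library at 6 h, with no overlap.

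The same order was seen after scaling to library size. Levels of pxy-mir-316-5p at 6 h were 392, 758 and 772 CPM at the low dose, and 505, 416 and 488 CPM at the high dose. At 24 h they were 1419, 921 and 1172 CPM at the low dose, and 1068, 1005 and 1071 CPM at the high dose. The lowest 24 h library thus stood above the highest 6 h library, and the spread was wide at the low dose and narrow at the high dose. Only 2 of the 73 names with enough counts to be tested (2.74%) had all 24 h libraries above all 6 h libraries, but since this contrast chose the miRNA, nothing is read from that share.

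In order of the group means, pxy-mir-316-5p stood at 1171 ± 249 CPM (SD, n = 3) for the low dose at 24 h, 1048 ± 37.3 for the high dose at 24 h, 641 ± 215 for the low dose at 6 h and 470 ± 47.0 for the high dose at 6 h. The groups of the same time overlapped each other, and the groups of different times did not. The log2 fold change of 24 h over 6 h in the edgeR fit was 1.06 ± 0.24 (SE) averaged over doses, a 2.08-fold difference, with 0.96 ± 0.33 in low-dose libraries and 1.16 ± 0.34 in high-dose libraries. The low-dose value rested in part on low-dose replicate 1 at 6 h, the library with 392 CPM, without which it was 0.52.

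Counts of this size carry a wide counting error. The 8 counts in the shallowest library, low-dose replicate 2 at 6 h, made up 0.0747% of its total, with a 95% Clopper-Pearson interval of 0.0322% to 0.147%. The 49 counts in low-dose replicate 1 at 24 h made up 0.130% (0.0961% to 0.172%). These intervals cover counting error only, since no molecular identifiers are named and reads are not independent molecules.

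The rows of pxy-mir-316-5p bear on how its sum was formed. In 5 of the 6 libraries at 6 h it filled 1 row, and high-dose replicate 1 held it as a pair of rows of 5 counts each. At 24 h it filled 3, 1 and 3 rows at the low dose and 1, 1 and 2 rows at the high dose. The extra rows at 24 h held 6 to 9 counts each and could have fallen below 5 in a shallower library.

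Taken from its highest row alone, pxy-mir-316-5p was at 641 ± 215 CPM (SD, n = 3) after 6 h and 920 ± 93.8 after 24 h at the low dose, and at 386 ± 121 and 981 ± 101 at the high dose. With TMM factors the groups of different times did not overlap on this measure either. As a share of library totals, however, the low-dose groups did overlap. The highest row of low-dose replicate 3 at 24 h held 31 of 41214 counts. That is a lower share than the 17 of 20386 counts in low-dose replicate 3 at 6 h. With the highest row the log2 fold change of 24 h over 6 h was 0.59 at the low dose, against 0.96 with summed rows, and 1.38 at the high dose, against 1.16.

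Depth and time moved together in this series, with 1 pair of libraries in the opposite order. High-dose replicate 1 at 24 h had a total of 28682, below the 30676 of low-dose replicate 1 at 6 h. It held 31 counts of pxy-mir-316-5p and 5 of pxy-mir-92b-5p, against 13 and no row in that 6 h library, which has the lowest pxy-mir-316-5p level of all 12 (392 CPM). The part of depth in the differences between times was not tested.

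**Figure D2:**
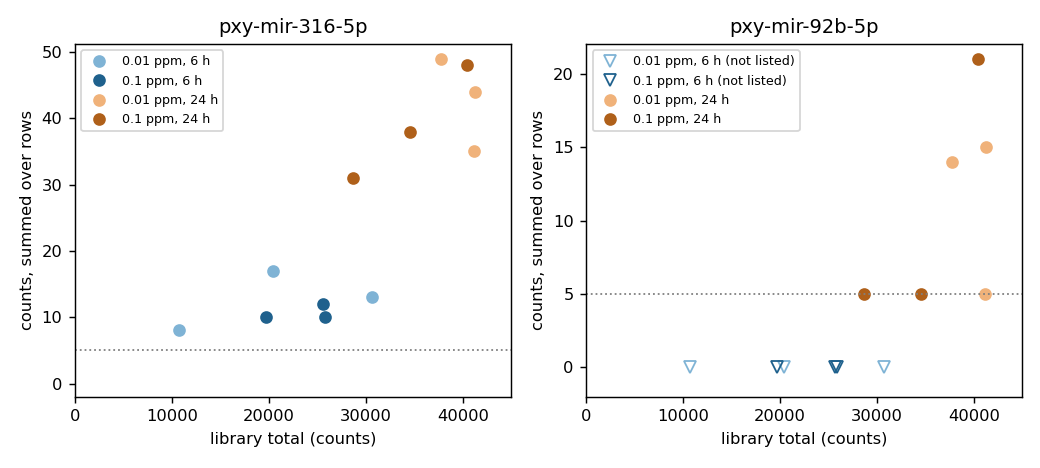
Counts of pxy-mir-316-5p and pxy-mir-92b-5p, summed over rows, against the total counts of each library. Filled circles list the miRNA, open triangles on the zero line are libraries that do not list it, and the dotted line is the lowest row value of 5. The 24 h libraries of pxy-mir-316-5p hold 31 to 49 counts and the 6 h libraries 8 to 17, while 3 of the 24 h libraries of pxy-mir-92b-5p sit on the line.

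The 5p arm of mir-92b was listed in all 6 libraries at 24 h and in none of the 6 at 6 h. Its counts at 24 h were 14, 5 and 15 in low-dose libraries and 5, 5 and 21 in high-dose libraries. Of the 105 names it was the only 1 (0.952%) with this pattern, and no name had the opposite one. As the pattern is what chose it, this share is a description.

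Levels of pxy-mir-92b-5p at 24 h were 405, 132 and 400 CPM at the low dose and 172, 132 and 469 CPM at the high dose. Both doses thus held low and high libraries and overlapped over most of their range. In the 3 libraries with 5 counts the miRNA stood at the lowest value a row can have, so those levels are as low as the files can show.

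The minimum row limits what the absence at 6 h can show. Over all 24 h libraries pxy-mir-92b-5p took 65 of 223730 counts, or 290.5 CPM before TMM scaling, of which its highest rows took 39. At the same share, the 6 h libraries would hold 3.11 to 8.91 counts of it, and its highest row would hold 1.87 to 5.35, under 5 in 5 of the 6 libraries. It would be 5.35 in low-dose replicate 1 and 4.50 and 4.46 in high-dose replicates 2 and 3, close to the minimum row. These are expected values without counting error, with which a row could fall on either side of 5. The 24 h share itself holds only rows that reached 5, and the part of depth in the absence was not tested. An unlisted name is not a measured 0, so no fold change is given. When every row was scaled down to the depth of the shallowest library and rows then under 5 were dropped, pxy-mir-92b-5p was listed in 0 of the 12 libraries. On that scale pxy-mir-316-5p was listed in 3 of the 6 libraries at 6 h and in 6 of 6 at 24 h, and pxy-mir-92b-3p in all 12.

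The 3p arm of mir-92b, which carries the family seed, was far more abundant than the 5p arm. At 6 h its counts were 167, 39 and 115 in low-dose libraries and 110, 98 and 88 in high-dose libraries. At 24 h they were 165, 177 and 169 in low-dose libraries and 85, 145 and 148 in high-dose libraries. The 3 low-dose libraries at 24 h were close to each other, and the library with 39 counts is the shallowest of the series.

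Scaled to library size, pxy-mir-92b-3p was at 5038, 3695 and 5220 CPM at the low dose and 5551, 4080 and 3579 CPM at the high dose in the 6 h libraries. In those of 24 h it was at 4778, 4657 and 4503 CPM at the low dose and 2928, 3835 and 3303 CPM at the high dose. No 24 h library reached the 3 highest 6 h libraries. The log2 fold change of 24 h over 6 h was -0.21 ± 0.12 (SE) averaged over doses, -0.04 ± 0.17 in low-dose libraries and -0.38 ± 0.17 in high-dose libraries. With the highest row alone the low-dose value changed sign, to 0.02.

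In order of the group means, pxy-mir-92b-3p stood at 4651 ± 833 CPM (SD, n = 3) at the low dose after 6 h, 4646 ± 138 at the low dose after 24 h, 4403 ± 1025 for the high dose after 6 h and 3355 ± 456 at the high dose after 24 h. Each group overlapped its neighbour in this order. With TMM factors the high-dose libraries at 24 h lay wholly below the low-dose libraries of the same time. As a share of library totals these doses overlapped, with high-dose replicate 2 at 0.420% and low-dose replicate 3 at 0.410%.

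Between doses, none of the 3 miRNAs passed an adjusted p of 0.05 (quasi-likelihood test in edgeR, Benjamini-Hochberg adjusted over 73 tested names). For pxy-mir-92b-5p nothing is read from that, for the reasons given below. The nearest to passing was pxy-mir-92b-3p after 24 h, with a log2 fold change of high over low dose of -0.46 ± 0.17 (SE), which is 1.38-fold lower (adjusted p = 0.064, edgeR). In this comparison 12 of the 73 names (16.4%) passed. In TMM-normalised CPM, though not as a share of library totals, the doses did not overlap. All 3 high-dose libraries were lower, as was the case for 19 of the 73 names (26%) in TMM-normalised CPM.

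This comparison turned on the scaling and on single libraries. With upper quartile factors the log2 value of pxy-mir-92b-3p at 24 h was -0.09, with library totals it was -0.23, and with rows scaled to the shallowest library it was -0.28. The first 2 scalings moved the median log2 fold change of all tested names from -0.16 to 0.21 and to 0.06. Without high-dose replicate 2 at 24 h, the highest of its group, the value passed (-0.57, adjusted p = 0.033, edgeR). In that fit 19 of 73 names passed, against 12 of 73 in the main fit. Without low-dose replicate 1 at 24 h the value was -0.30. Over all alternatives and omissions the adjusted p from edgeR or DESeq2 ran from 0.0311 to 0.799.

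After 6 h the dose difference of pxy-mir-92b-3p was -0.12 ± 0.18 (SE) on the log2 scale (adjusted p = 0.822, edgeR), and 0.05 with upper quartile factors. It ran from -0.32 without high-dose replicate 1 to -0.0052 without low-dose replicate 3 of that time. In that comparison 1 of the 73 names (1.37%) passed. Averaged over both times it was -0.29 ± 0.12 (adjusted p = 0.11, edgeR), where 10 of 73 names (13.7%) passed. It passed there without high-dose replicate 1 at 6 h (-0.37, adjusted p = 0.0301, edgeR), in a fit where 16 of 75 names passed. The averaged value was -0.02 with upper quartile factors and -0.17 without low-dose replicate 3 at 6 h. The dose effect at 24 h less that at 6 h was -0.34 ± 0.24 (adjusted p = 0.474, edgeR interaction term), with 6 of 73 names (8.22%) passing. That difference was -0.44 if high-dose replicate 2 at 24 h was left out and -0.089 if high-dose replicate 1 at 6 h was.

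For pxy-mir-316-5p the log2 fold change of high over low dose was -0.35 ± 0.40 (SE) at 6 h (adjusted p = 0.814, edgeR) and -0.16 ± 0.28 at 24 h (adjusted p = 0.782). Averaged over times it was -0.25 ± 0.24 (adjusted p = 0.492, edgeR). The 24 h value had the opposite sign with library totals (0.07), upper quartile factors (0.23) and the highest row alone (0.21), and the averaged value with upper quartile factors (0.02). The dose effect at 24 h less that at 6 h was 0.20 ± 0.48 (adjusted p = 0.918, edgeR interaction term), 0.79 with the highest row alone and 0.56 with library totals. Both low-dose libraries at the ends of the 6 h range moved these values. Leaving out replicate 1 (392 CPM) gave -0.67 at 6 h, -0.35 averaged over times and 0.65 for the difference of dose effects. Leaving out replicate 3 (772 CPM) gave -0.072, -0.048 and 0.049. The 24 h value was 0.15 when low-dose replicate 1 of that time was left out, and none of these passed.

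For pxy-mir-92b-5p doses could be compared only at 24 h, where the log2 fold change was -0.19 ± 0.96 (SE, adjusted p = 0.923, edgeR), with the opposite sign under library totals (0.04) and upper quartile factors (0.20). It was -0.91 if high-dose replicate 3 was left out and 0.18 if low-dose replicate 1 was. It had enough counts to be tested only through the 24 h libraries. Of these, low-dose replicate 2 and high-dose replicates 1 and 2 stood at the minimum of 5 counts. Nothing is therefore read from this comparison.

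The highest and second rows of pxy-mir-92b-3p did not behave alike between doses after 24 h. The highest row held 108, 107 and 113 counts in the low-dose libraries and 46, 76 and 81 in the high-dose libraries. The second row held 37, 37 and 40 counts in low-dose libraries and 34, 64 and 62 in high-dose libraries. In CPM the highest row stood at 2984 ± 158 (SD, n = 3) in low-dose and 1801 ± 213 in high-dose libraries, and the second row at 1037 ± 54.9 and 1416 ± 262. The rows below the second summed to 579, 868 and 426 CPM in low-dose libraries, from a pair of rows each, and to 172, 132 and 112 CPM in high-dose libraries, from a single row at the minimum of 5 counts each. The highest row and these lower rows were thus lower at the high dose, and the second row was higher. The doses did not overlap in CPM for the highest row, as in 25 of the 48 names with at least a pair of rows in each 24 h library (52.1%), nor for the second row, as in 17 of the 48 (35.4%). This row comparison was chosen after the values were seen and was not tested.

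As a ratio of the second to the highest row, the low-dose libraries at 24 h were at 0.343, 0.346 and 0.354 and the high-dose libraries at 0.739, 0.842 and 0.765. At 6 h the ratios were 0.382, 0.500 and 0.651 in low-dose libraries and 0.768, 0.266 and 0.949 in high-dose libraries, and the doses overlapped. Of the 48 names with at least a pair of rows in each 24 h library, 18 (37.5%) did not overlap between doses in this ratio, so pxy-mir-92b-3p was 1 of many. Since rows carry no identity in the files, the highest row of 1 library cannot be matched to that of another. When only the highest row of every name was counted, the dose difference of pxy-mir-92b-3p passed at 24 h (-0.59 ± 0.19 SE, adjusted p = 0.0311, edgeR) and averaged over times (-0.43 ± 0.14, adjusted p = 0.0435, edgeR). In these fits 12 of 70 names passed at 24 h and 9 of 70 averaged over times.

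**Figure D3:**
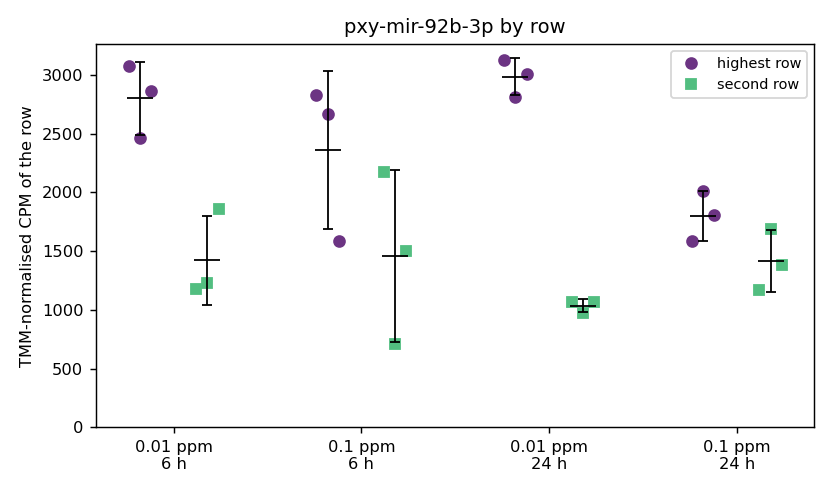
TMM-normalised CPM of the highest row (circles) and the second row (squares) of pxy-mir-92b-3p in each library, by dose and time, with group means and SD of 3 libraries. At 24 h the highest row stands at 2984 CPM at the low dose and 1801 CPM at the high dose, and the second row at 1037 and 1416 CPM, while at 6 h the doses overlap for both rows.

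The balance of the mir-92b arms could be followed only at 24 h, where both were listed. The 3p arm held 11.8, 35.4 and 11.3 times the counts of the 5p arm at the low dose, and 17.0, 29.0 and 7.05 times at the high dose. Both doses held libraries with low and high ratios. The difference in mean log2 ratio, high less low dose, was -0.15 (4.07 ± 0.94 in low-dose libraries and 3.92 ± 1.03 in high-dose libraries, SD, n = 3; exact two-sided permutation p = 0.9, where the smallest p this design allows is 0.1). The highest ratios, 35.4, 29.0 and 17.0, were those of the libraries where the 5p arm stood at the minimum of 5 counts. The split into low and high ratios thus followed that minimum.

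The miR-92 seed family had 1 more listed name, pxy-mir-92a-3p, which shares the family seed, so that reads may be divided between it and pxy-mir-92b-3p in a way the sources used here do not state. It was listed in 8 of 12 libraries. Its counts were 13 and 5 in low-dose replicates 1 and 3 and 6 and 5 in high-dose replicates 2 and 3 at 6 h. At 24 h they were 16, 17 and 6 at the low dose and 14 in high-dose replicate 2, and the other high-dose libraries did not list it. With libraries unlisted in 3 of the 4 groups, no fold change is given. No other arm of mir-316, and none of mir-25 or of mir-310 to mir-313, was listed.

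Of these 4 names, 0 passed between doses at 24 h (edgeR), with 1, pxy-mir-92b-3p, at an unadjusted p under 0.05, and DESeq2, which gave an adjusted p only for that 1 (0.2), called 0. Their median log2 fold change was -0.33, beside -0.16 over all 73 names. That median counts pxy-mir-92a-3p with its unlisted libraries at 0, so no shift of these names is read from it. The other names stood at -0.16 (pxy-mir-316-5p), -0.19 (pxy-mir-92b-5p) and -0.46 (pxy-mir-92b-3p). Of the muscle list (mir-1, mir-133, mir-206 and mir-92b), 3 names were listed and 0 passed at 24 h in edgeR, with the same 1 at an unadjusted p under 0.05, and 0 in DESeq2, which again adjusted that 1 alone. Its remaining member, pxy-mir-1-3p, a miRNA of muscle, was at 0.45 ± 0.38 (SE, adjusted p = 0.478, edgeR).

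The patterns most like each miRNA were found by the root mean square difference of log2 CPM over the 12 libraries, each name centred on its own mean. For pxy-mir-92b-3p the nearest were pxy-mir-71-3p (0.18), pxy-mir-11-3p (0.20) and pxy-miR-2a-3p (0.20), against a median of 0.46 over the tested names. For pxy-mir-316-5p the nearest names lay farther off, with pxy-mir-14a-3p at 0.43, pxy-miR-281-3p at 0.45 and pxy-miR-10-3p at 0.49, against a median of 0.64. Their mean differences of 24 h over 6 h were 0.27, 0.18 and 0.34 in log2 CPM, beside 0.95 for pxy-mir-316-5p on the same scale. All libraries share their scaling factors, so these distances are a description.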

How the data were processed

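The authors deposited, per the file headers, 1 table per library that pairs miRNA names with a read count. Per the labels' protocols, the small RNA libraries came from a TruSeq kit and an Illumina HiSeq run of 50 nt reads. The sources used here give no mapper, miRNA reference or filter. All rows of a name were added up, and library totals were 10714 to 41214.

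All names were fitted in R 4.3.3 with edgeR 4.0.16 and TMM factors, keeping names that passed filterByExpr (count minimum 10). The quasi-likelihood test had 1 mean for each of 4 groups and 8 residual degrees of freedom. Benjamini-Hochberg adjustment ran over the 73 names kept, with a threshold of 0.05, and the other 32 went untested. SE is the size of the log2 fold change over the root of F. Distances used log2 CPM with a prior count of 2. The fit was checked on simulated data.

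Besides the 3 miRNAs, the text names their families, the muscle list, the 3 nearest patterns and the neighbours by level. Members and lists were chosen with earlier results of these data known. The fit was repeated with DESeq2 1.42.0, RLE or upper quartile factors, library totals, the highest row, no filter, a minimum of 10 counts in each library, rows scaled to the shallowest library, a replicate block, only the libraries compared, and each library left out.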

Additional observations from a re-analysis of the deposited data

How the results depend on the processing

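Neither pxy-mir-316-5p nor pxy-mir-92b-5p passed between doses under any alternative that tested it. With at least 10 counts in every library neither was tested. The highest row and scaled rows did not test pxy-mir-92b-5p. With upper quartile factors the log2 dose difference was 0.23 at 24 h and 0.021 averaged over times for pxy-mir-316-5p, 0.20 at 24 h for pxy-mir-92b-5p and 0.048 at 6 h for pxy-mir-92b-3p, each opposite in sign to TMM. With library totals it was 0.073 and 0.039 at 24 h for pxy-mir-316-5p and pxy-mir-92b-5p, and the difference of dose effects between times was 0.019 for pxy-mir-92b-3p. The 24 h dose value of pxy-mir-316-5p was 0.21 with the highest row and 0.21 with rows scaled to the shallowest library. With the highest row pxy-mir-92b-3p passed at 24 h (-0.59, with 12 of 70 names passing) and averaged over times (-0.43, with 9 of 70). On that measure the low-dose time value of pxy-mir-316-5p was 0.59. The cause of these shifts was not tested. DESeq2 gave no adjusted p at 24 h for pxy-mir-316-5p and pxy-mir-92b-5p. No time or 6 h value of pxy-mir-316-5p is given with scaled rows, where 3 libraries no longer list it. The arm ratio could not be formed at 6 h or with scaled rows.

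With each library left out in turn, the dose value of pxy-mir-92b-3p ran from -0.57 to -0.30 at 24 h and from -0.37 to -0.17 averaged over times. It passed in 1 of 12 fits each, fits in which 19 of 73 and 16 of 75 names passed. The dose value of pxy-mir-316-5p ran from -0.16 to 0.15 at 24 h and that of pxy-mir-92b-5p from -0.91 to 0.18. The low-dose time value of pxy-mir-316-5p ran from 0.52 to 1.11, and the arm ratio from -0.61 to 0.41. Counts of names called ran from 4 to 16 for dose averaged over times, 0 to 7 for dose at 6 h, 7 to 19 for dose at 24 h, 3 to 9 for the difference of dose effects, 4 to 12 for time averaged over doses, 5 to 13 for time at the low dose and 3 to 7 for time at the high dose.

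Calls for dose averaged over times numbered 10 in the main fit and 3 with rows scaled to the shallowest library. The settings did not all test the same names, so these counts are not shares of 1 set. The main fit, the other factors and the replicate block tested 73 names. Scaled rows tested 47, at least 10 counts in every library 46, no filter 105 and the highest row 70. Only the libraries compared tested 62 for dose at 6 h and 70 for time at the low dose. The 1 call at 6 h became 0 with RLE factors, the replicate block or only the libraries compared, 2 with library totals or the highest row, 3 with no filter and 4 with upper quartile factors. The 6 calls for the difference of dose effects became 3 with upper quartile factors and 3 with scaled rows. For time, 8 calls averaged over doses became 5 with at least 10 counts in every library and 4 with scaled rows, 14 at the low dose became 8 with RLE factors, the highest row or only the libraries compared, 6 with upper quartile factors and 7 with at least 10 counts, and 5 at the high dose became 3 with upper quartile factors and 3 with scaled rows. The split of 5 higher and 7 lower at 24 h became 13 and 2 with upper quartile factors. Of 12 same-numbered pairs of libraries, 5 had a correlation of deviations from the group means over 0.1. Between doses the correlations were 0.37, 0.14 and -0.19 at 6 h and 0.056, 0.32 and 0.35 at 24 h. Between times they ran from -0.32 to 0.10. Pairs with different numbers were not compared, so whether replicate numbers pair the libraries was not tested. With the replicate block the dose value of pxy-mir-92b-3p at 24 h was -0.46 (adjusted p = 0.0787, edgeR), and no call on the 3 miRNAs changed.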
